A study of Mus musculus with 6 samples.

Results

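Expression of the protein components of the spliceosome was analysed in mouse NIH/3T3 cells, a permanently growing line of fibroblasts, after knockdown of Aldoa. The genes were taken from a list of 54 symbols that covers the Sm and LSm proteins, proteins of the U1, U2 and U4/U6.U5 small nuclear ribonucleoproteins (snRNPs), Prp19-related proteins, serine/arginine-rich (SR) proteins and 3 RNA-binding proteins of the DBHS and FET families. Of these, 53 were found by symbol among the 18001 genes of the deposited table and Srsf2 was not analysed here. Cells received either pooled Aldoa siRNAs (siAldoa) or non-targeting siRNAs (siCtrl) and were harvested after 48 h, and poly(A) RNA was sequenced from 3 replicates per group. Both groups were grown in the same serum-containing medium and received siRNA, so the groups differ in the target of the siRNA, and untransfected cells were not part of the comparison. The study made these libraries to see whether loss of this glycolytic enzyme lowers transcripts of ribosome biogenesis genes, and the splicing genes were not the subject of that question.

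Introns are removed by the spliceosome, which assembles anew on each intron. Sm proteins form a ring on the U1, U2, U4 and U5 small nuclear RNAs, and LSm proteins form a related ring on the U6 RNA. U1 recognises the upstream splice site and U2 the branch point, the tri-snRNP then joins with the U4, U5 and U6 RNAs, and the Prp19 complex accompanies activation, while SR proteins bind exons and guide the choice of splice sites.

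Values are CPM, reads per gene relative to the authors' effective library size, and whole reads could be recovered from all of them. The recovered depth was 3692341 to 3771129 reads per library, and the members had between 28 and 2574 reads in a library. Aldoa was at 522, 536 and 545 CPM in siCtrl and at 62.9, 69.2 and 72.0 CPM in siAldoa, so the labels match the knockdown. All 8 fibroblast markers examined were in the table, with a summed level of 13075 to 13612 CPM in siCtrl and 10803 to 11474 CPM in siAldoa, with Col1a1, Col1a2, Vim and S100a4 lower and Fn1, Pdgfrb and Thy1 higher in siAldoa. The summed level was 1.83 to 7.39 CPM for 1 of 4 epithelial markers found in the table, 1.83 to 6.57 CPM for 2 of 4 haematopoietic and 3.47 to 8.47 CPM for 3 of 4 endothelial markers. The lower fibroblast sum moved with the groups and its part in the results below was not tested. Replicates 1 and 2 of a group were closer to each other (chi-square per degree of freedom 1.12 in siCtrl and 1.11 in siAldoa) than to replicate 3 (1.97 to 3.03), and the methods state that the spike-in RNA was added at another step in replicate 1 than in the others.

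Transcripts of the splicing proteins were lower in siAldoa or did not pass the test. Groups were compared with limma on log2(CPM + 1), two-sided, and p-values were adjusted by Benjamini-Hochberg over all 18001 genes, so log2 fold changes are on the log2(CPM + 1) scale. With an adjusted p-value under 0.05, 24 of 53 members were lower and 0 were higher, and 29 did not pass. Over all genes 10.0% were lower and 10.4% higher. At an unadjusted p-value under 0.05, 31 members were lower and 1 was higher, beside 15.1% and 15.5% of all genes. edgeR's quasi-likelihood test called 24 members lower and 0 higher, beside 10.4% and 10.7% of all genes. DESeq2 called 20 members lower and 0 higher, beside 9.53% and 9.10% of the 11717 genes to which it gave an adjusted p-value. The median log2 fold change of the members was -0.20 (range -0.64 to 0.10), beside -0.0023 over all genes. In 35 members every siAldoa library lay below every siCtrl library, and in 2 (Sf3b3 and Srsf11) above, beside 17.1% and 16.7% of all genes. Of the 10353 genes with a mean CPM at or above that of the lowest member, 16.2% were lower and 15.7% higher. A gene of the table with a near-identical stretch on either strand was found for 23 members (10 called lower). For the other 30 none was found (14 called lower). For Bud31, Ewsr1, Sf3a2 and Snrpf the only such gene was a neighbour overlapping on the opposite strand (Ptcd1, Rhbdd3, Plekhj1 and Ccdc38), not a copy elsewhere. Exonic bases are shared with another gene of the table by 14 members, so reads of these genes are uncertain. Of these, 8 were called lower (Bud31, Eftud2, Ewsr1, Lsm3, Sf3a2, Sfpq, Snrpd3 and Srsf1). For Lsm3 and Sfpq the other gene lies on the same strand (AC161456.1 with 174 and Gm12940 with 216 shared bases). In called members siAldoa was at 63.6% to 86.9% of siCtrl, and in a bulk sample less RNA per cell and fewer cells of a kind cannot be told apart. For a single gene the exact permutation test cannot go below p = 0.1 with 3 against 3 libraries, so the fit across all genes was used. Calls were fewer without the mean-variance trend, with 8 members lower and 0 higher (3.42% and 4.58% of all genes), and without both libraries of replicate 1, 2 or 3, with 14, 12 and 10 members lower. Without any 1 library 18 to 21 members were lower.

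**Figure D1:**
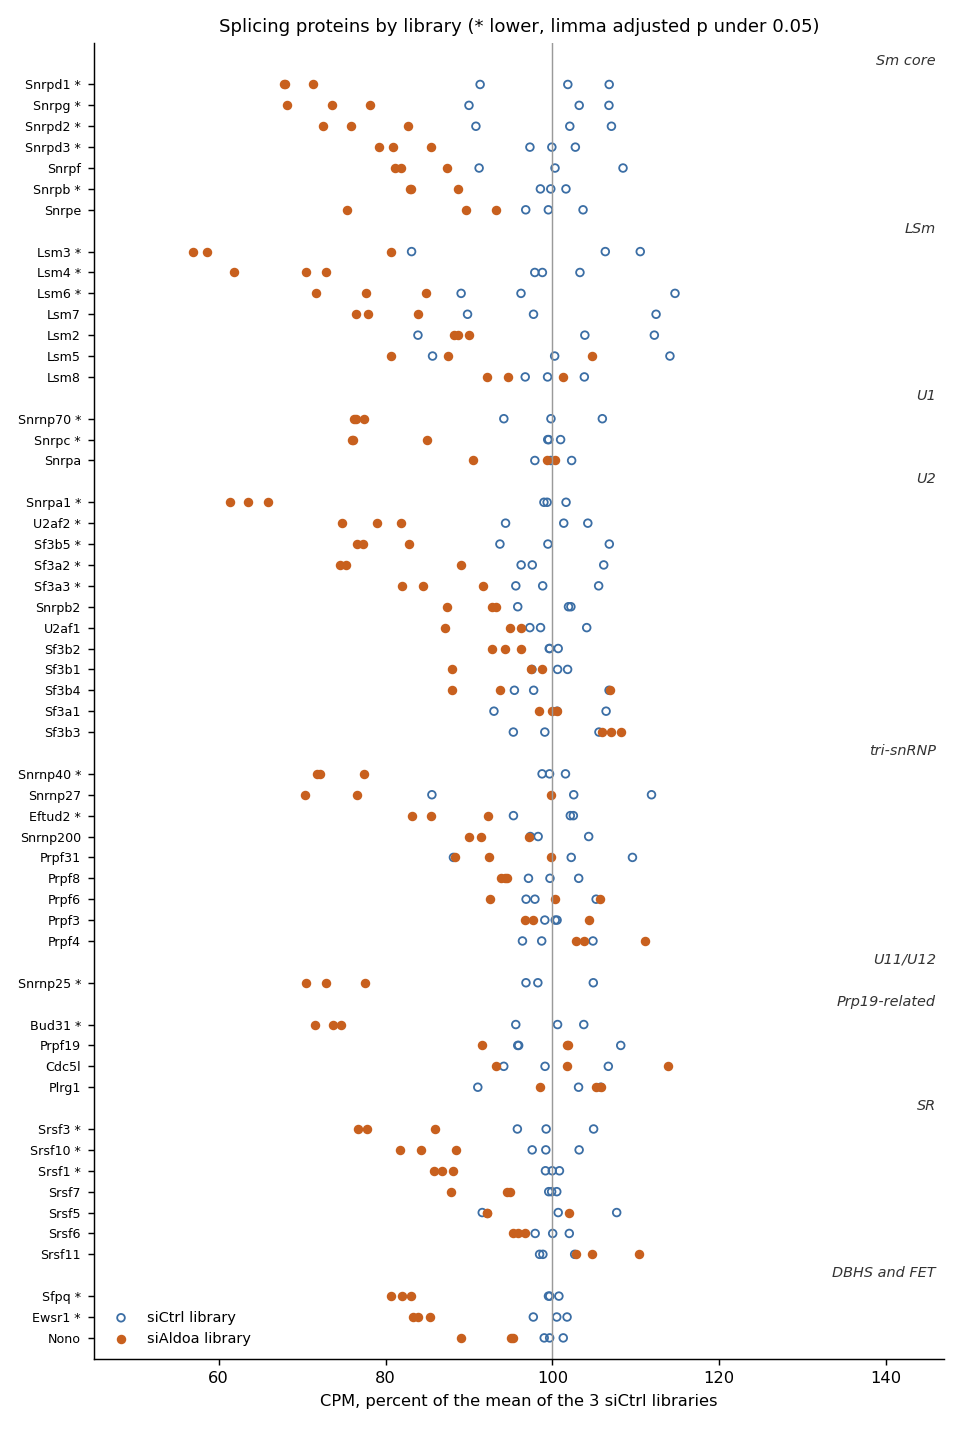
CPM of each of the 53 members in each library, as percent of the mean of the 3 siCtrl libraries (x axis), grouped by class. Open circles are siCtrl and filled circles siAldoa libraries, and an asterisk marks the 24 members called lower, which lie between 63.6% and 86.9% of siCtrl on average.

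The Sm core had 5 of 7 members lower, with a median log2 fold change of -0.29. Snrpd1, which encodes the SmD1 protein, was at 85.7, 73.3 and 81.8 CPM in siCtrl and at 57.2, 54.5 and 54.5 CPM in siAldoa (log2 fold change -0.52, standard error 0.074, adjusted p = 1.1e-05). Snrpg, which encodes SmG, was at 54.0, 47.1 and 55.8 CPM in siCtrl and at 35.6, 38.5 and 40.8 CPM in siAldoa (-0.44, standard error 0.090, adjusted p = 0.00092). Snrpd2, which encodes SmD2, was at 105, 89.5 and 100.5 CPM in siCtrl and at 74.8, 71.4 and 81.4 CPM in siAldoa (-0.37, standard error 0.071, adjusted p = 0.00045). In all 3 genes the highest siAldoa library stayed below the lowest siCtrl library, and siCtrl replicate 2 was the lowest control. Snrpd3 and Snrpb, which encode SmD3 and SmB, were also lower, with log2 fold changes of -0.29 and -0.24. Snrpe, which encodes SmE and had the smallest fold change of the class, was at 49.3, 47.3 and 46.0 CPM in siCtrl and at 42.6, 44.4 and 35.9 CPM in siAldoa (-0.22, adjusted p = 0.10). Snrpf, which encodes SmF and had few reads, was at 18.4, 16.7 and 19.8 CPM in siCtrl and at 14.8, 15.0 and 16.0 CPM in siAldoa (-0.24, adjusted p = 0.25). Neither passed the test, although in all 7 Sm genes the libraries of the groups did not overlap. A near-identical predicted gene, Gm8186, shares a stretch with Snrpg and was also lower (log2 fold change -0.37), so the reads of this pair are uncertain.

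The LSm proteins had 3 of 7 members lower, with a median log2 fold change of -0.31. Lsm3 was at 25.2, 19.7 and 26.2 CPM in siCtrl and at 13.5, 13.9 and 19.1 CPM in siAldoa (-0.59, standard error 0.15, adjusted p = 0.0062). Lsm4 was at 103, 102 and 108 CPM in siCtrl and at 73.4, 64.4 and 75.9 CPM in siAldoa (-0.55, standard error 0.068, adjusted p = 2.3e-06). Lsm6 was at 50.1, 54.2 and 64.6 CPM in siCtrl and at 47.8, 40.4 and 43.7 CPM in siAldoa (-0.35, standard error 0.094, adjusted p = 0.0098). These proteins are subunits of the ring on U6 RNA, and all siAldoa libraries lay below all controls, although for Lsm3 siAldoa replicate 3 came close to siCtrl replicate 2. Lsm3 no longer passed without siCtrl replicate 1 or 3 or siAldoa replicate 1 or 2 (adjusted p = 0.060, 0.073, 0.067 and 0.061), and Lsm6 without siCtrl replicate 3 or siAldoa replicate 2 or 3 (adjusted p = 0.11, 0.094 and 0.064). Lsm8, the subunit that marks the nuclear U6 ring, was at 56.7, 58.3 and 60.9 CPM in siCtrl and at 59.4, 54.0 and 55.5 CPM in siAldoa, so the groups overlapped (-0.06, adjusted p = 0.67). Lsm2, Lsm5 and Lsm7 did not pass either, with log2 fold changes of -0.16, -0.12 and -0.31. Lsm5 and Lsm7 each have 2 near-identical predicted genes in the table, and with the CPM of these added both were lower (log2 fold changes -0.40 and -0.36, adjusted p = 0.013 and 0.0022), which made 5 LSm members lower. Adding such genes also made U2af1 lower (-0.17, adjusted p = 0.019), for 27 members in all. Without siCtrl replicate 2, Lsm2 passed as well (adjusted p = 0.012).

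The U1 proteins had 2 of 3 members lower. Snrnp70, which encodes the U1-70K protein that binds U1 RNA and SR proteins, was at 232, 246 and 261 CPM in siCtrl and at 188, 189 and 191 CPM in siAldoa (-0.38, standard error 0.048, adjusted p = 3.0e-06). Snrpc, which encodes the U1 protein that contacts the upstream splice site, was at 32.9, 32.8 and 33.3 CPM in siCtrl and at 25.1, 28.1 and 25.1 CPM in siAldoa (-0.33, standard error 0.10, adjusted p = 0.024). Snrpa, which encodes an RNA-binding U1 protein, was at 58.6, 57.2 and 56.1 CPM in siCtrl and at 56.9, 57.5 and 51.8 CPM in siAldoa (-0.05, adjusted p = 0.73). The groups were apart for Snrnp70 and Snrpc and overlapped for Snrpa. The call of Snrpc was lost when any 1 library other than siAldoa replicate 2 was left out (adjusted p between 0.062 and 0.079) and with DESeq2 (adjusted p = 0.14).

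Among the U2 proteins 5 of 12 were lower, with a median log2 fold change of -0.12. Snrpa1, which encodes a leucine-rich protein of the U2 snRNP, had the lowest log2 fold change of all members: it was at 48.8, 50.1 and 48.9 CPM in siCtrl and at 31.3, 30.2 and 32.5 CPM in siAldoa (-0.64, standard error 0.087, adjusted p = 7.4e-06), 63.6% of the control. U2af2, the large subunit of the factor that binds the polypyrimidine tract, was at 190.4, 177 and 196 CPM in siCtrl and at 154, 148 and 140.3 CPM in siAldoa (-0.35, standard error 0.053, adjusted p = 3.4e-05). Sf3b5, a small subunit of the SF3b complex at the branch point, was at 60.8, 53.3 and 56.6 CPM in siCtrl and at 44.0, 43.6 and 47.1 CPM in siAldoa (-0.33, standard error 0.081, adjusted p = 0.0040). The libraries of the groups were apart for all 3 genes, and Gm5846, which is near-identical to U2af2, was also lower (-0.50). Sf3a2 and Sf3a3 of the SF3a complex had log2 fold changes of -0.33 and -0.21. Both were sensitive to 1 library: Sf3a2 did not pass without siCtrl replicate 1 or siAldoa replicate 1 or 2 (adjusted p = 0.061, 0.058 and 0.061), and Sf3a3 without siCtrl replicate 2 or 3 or siAldoa replicate 1 or 3 (adjusted p = 0.10, 0.051, 0.074 and 0.092). Sf3b3, another SF3b subunit, had the highest log2 fold change of the members, at 284, 314 and 295 CPM in siCtrl and 315, 322 and 319 CPM in siAldoa (0.10, adjusted p = 0.11), and passed as higher without siCtrl replicate 2 (adjusted p = 0.044). Sf3b1, the large SF3b subunit at the branch point, and Sf3a1 had log2 fold changes of -0.08 and -0.0026 and did not pass.

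Among the promoters, a 7-letter sequence that ETS factors are known to bind, CCGGAAG, was held by 37.0% of 54 windows of 45 members and 15.2% of 14296 windows of 11192 genes of the table. It was searched on both strands in RefSeq windows of GRCm38.p6 from 250 bases before to 50 bases after each start. By window the share was 22.2% of 18 windows in members called lower and 44.4% of 36 windows in members not called. By gene it was found for 4 of 17 members called lower and 14 of 28 members not called, beside 1996 of 11192 genes of the table. No share was taken over genes with levels like those of the members. Shares for other sequences were closer to those of all genes: CACGTG (E-box) 7.41% against 9.25%, CCAAT 42.6% against 37.8%, GGGCGG (GC box) 61.1% against 56.7%, and TATAAA 5.56% against 8.16%. ATGGCG, the core that YY1 is known to bind, was in 27.8% against 13.5%, and these letters also occur where a coding sequence starts. A match to CCGGAAG shared a base with a GC box in 1 member window, and a CCAAT match did so in 1. The windows of the 4 called members that hold CCGGAAG, and that of Snrpa1, which fell most and does not, are shown upstream of the start, with the match on either strand in capitals (Snrpg chr6:86371290-86371539, Snrpc chr17:27839837-27840086, Sf3a2 chr10:80798485-80798734, Sf3a3 chr4:124714611-124714860 and Snrpa1 chr7:66060086-66060335, all on the plus strand).
Snrpg: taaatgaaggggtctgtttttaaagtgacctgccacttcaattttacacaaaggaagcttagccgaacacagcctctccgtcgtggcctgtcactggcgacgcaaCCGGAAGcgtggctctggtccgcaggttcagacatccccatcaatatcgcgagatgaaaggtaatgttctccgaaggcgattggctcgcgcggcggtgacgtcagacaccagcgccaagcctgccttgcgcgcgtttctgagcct
Snrpc: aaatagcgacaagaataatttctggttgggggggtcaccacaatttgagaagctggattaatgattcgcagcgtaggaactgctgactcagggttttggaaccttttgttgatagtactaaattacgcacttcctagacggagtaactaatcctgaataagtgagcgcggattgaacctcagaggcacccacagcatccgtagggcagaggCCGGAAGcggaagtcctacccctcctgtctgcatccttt
Sf3a2: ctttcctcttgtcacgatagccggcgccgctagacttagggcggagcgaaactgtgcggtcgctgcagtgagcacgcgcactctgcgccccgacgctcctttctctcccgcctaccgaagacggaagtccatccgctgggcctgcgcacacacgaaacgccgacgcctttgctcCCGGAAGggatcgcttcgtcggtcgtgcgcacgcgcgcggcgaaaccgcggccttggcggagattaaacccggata
Sf3a3: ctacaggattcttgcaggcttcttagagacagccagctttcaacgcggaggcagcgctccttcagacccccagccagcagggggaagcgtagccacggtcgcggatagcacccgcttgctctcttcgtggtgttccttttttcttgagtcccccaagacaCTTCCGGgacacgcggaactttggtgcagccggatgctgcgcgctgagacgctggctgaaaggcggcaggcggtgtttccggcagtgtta
Snrpa1: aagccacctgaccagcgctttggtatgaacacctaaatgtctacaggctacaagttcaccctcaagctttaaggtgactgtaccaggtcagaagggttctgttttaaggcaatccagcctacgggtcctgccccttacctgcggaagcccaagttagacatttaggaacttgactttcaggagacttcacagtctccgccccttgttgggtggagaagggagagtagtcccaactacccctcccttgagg
The windows follow RefSeq starts, and those of Snrpa1, Snrpc and Sf3a2 lie inside the genes as GENCODE places them. The GENCODE starts are at 66059003, 27838150 and 80798198, and the sequence upstream of these is not shown. A match is a description of these letters and says nothing of binding in these cells.

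In the tri-snRNP class 2 of 9 members were lower, with a median log2 fold change of -0.09. Snrnp40, a WD-repeat protein of the U5 snRNP, was at 104, 100.9 and 102 CPM in siCtrl and at 73.4, 73.8 and 79.1 CPM in siAldoa (-0.43, standard error 0.062, adjusted p = 1.3e-05), and the groups were far apart. Eftud2, the U5 GTPase, was at 170.1, 171 and 159 CPM in siCtrl and at 138, 142 and 154 CPM in siAldoa (-0.20, standard error 0.054, adjusted p = 0.0092). siAldoa replicate 3 was the closest to the controls, and the call was lost without replicate 1 or 2 of either group (adjusted p between 0.059 and 0.074). Prpf8, the U5 scaffold at the catalytic centre, was at 485, 515 and 497 CPM in siCtrl and at 472, 468 and 471 CPM in siAldoa (-0.08, adjusted p = 0.11), apart but by a small margin. Prpf4 of the U4/U6 snRNP, the highest of the class, was at 65.2, 66.7 and 70.9 CPM in siCtrl and at 70.2, 69.5 and 75.1 CPM in siAldoa (0.08, adjusted p = 0.47). The other 5 (Snrnp27, Snrnp200, Prpf31, Prpf6 and Prpf3) had log2 fold changes from -0.28 to -0.0068 and did not pass. Snrnp25, a protein of the U11/U12 snRNP that acts on minor introns, was at 18.1, 16.7 and 16.9 CPM in siCtrl and at 12.1, 12.6 and 13.4 CPM in siAldoa (-0.41, standard error 0.15, adjusted p = 0.045). The groups did not overlap, but the adjusted p-value was above 0.05 without any 1 of the 6 libraries (0.067 to 0.13).

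**Figure D2:**
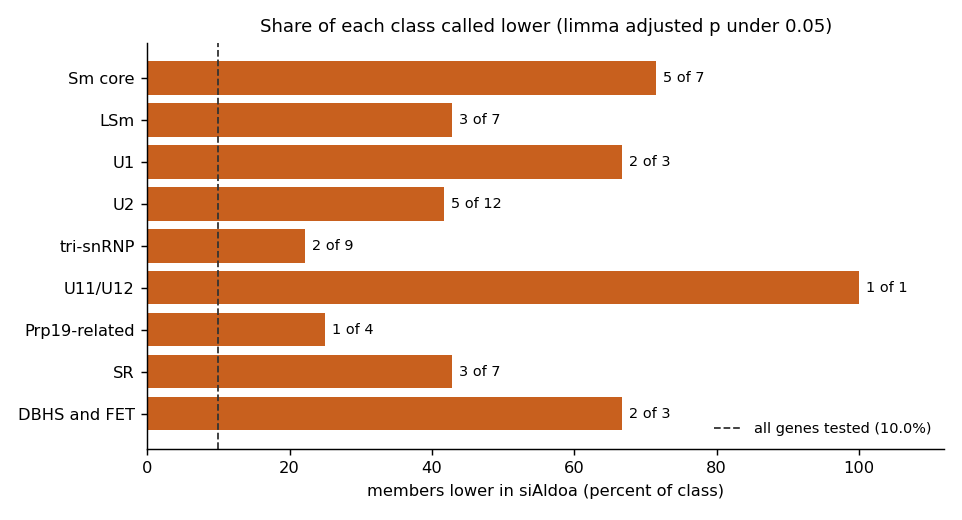
Share of each class called lower in siAldoa (bars, percent of its members, limma adjusted p under 0.05), with counts at the bars and the share of all genes as a dashed line at 10.0%. The bars run from 2 of 9 in the tri-snRNP class to 5 of 7 in the Sm core, and to the single U11/U12 member.

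Among the 4 Prp19-related members 1 was lower, and the median log2 fold change was 0.0078. Bud31, a small protein near the active site, was at 67.4, 69.5 and 64.0 CPM in siCtrl and at 49.4, 49.98 and 47.9 CPM in siAldoa (-0.44, standard error 0.074, adjusted p = 1.0e-04). All siAldoa libraries were below all controls, while Ptcd1, whose exons overlap those of Bud31 on the opposite strand, rose (0.39, adjusted p = 0.027). Plrg1, a WD-repeat subunit of the Prp19 complex, was at 59.4, 51.2 and 57.9 CPM in siCtrl and at 59.1, 55.3 and 59.4 CPM in siAldoa (0.05, adjusted p = 0.75), with overlapping groups. Prpf19, the ubiquitin ligase that gives the complex its name, and Cdc5l did not pass, with log2 fold changes of -0.02 and 0.04.

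The SR proteins had 3 of 7 members lower, with a median log2 fold change of -0.11. Srsf3 was at 359.6, 373 and 394 CPM in siCtrl and at 323, 288 and 292 CPM in siAldoa (-0.32, standard error 0.047, adjusted p = 2.0e-05). Srsf10 was at 343, 363 and 349 CPM in siCtrl and at 311, 297 and 287 CPM in siAldoa (-0.24, standard error 0.042, adjusted p = 0.00021). Srsf1 was at 675, 669.7 and 681 CPM in siCtrl and at 595, 579.7 and 586 CPM in siAldoa (-0.20, standard error 0.033, adjusted p = 7.8e-05). All 3 bind exonic RNA and had groups that did not overlap, and 2 predicted genes near-identical to Srsf3, Gm12355 and Gm9761, were lower as well (-0.41 and -0.28). Srsf11, the highest of the class, was at 262, 251 and 252 CPM in siCtrl and at 281, 267 and 262 CPM in siAldoa (0.08, adjusted p = 0.20), with siAldoa just above. Srsf5, Srsf6 and Srsf7 had log2 fold changes of -0.07, -0.06 and -0.11 and did not pass.

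Of the DBHS and FET proteins, 2 of 3 were lower. Sfpq, a DBHS protein of paraspeckles, was at 683, 676 and 675 CPM in siCtrl and at 563, 556 and 547 CPM in siAldoa (-0.29, standard error 0.033, adjusted p = 8.0e-07). Ewsr1, a FET protein that binds RNA and the transcription machinery, was at 365, 375 and 379.7 CPM in siCtrl and at 318, 311 and 313 CPM in siAldoa (-0.25, standard error 0.039, adjusted p = 4.7e-05). Nono, the DBHS partner of Sfpq, was at 309, 302 and 304 CPM in siCtrl and at 271, 289.7 and 290.4 CPM in siAldoa (-0.10, adjusted p = 0.092). The groups were apart in all 3 genes, by a small margin for Nono. The classes were not tested against each other.

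Of the 24 members called lower, 6 were lower in all 20 alternative settings. Their positions are given in GRCm38 from GENCODE. Snrpa1 (ENSMUSG00000030512) lies on chromosome 7 from 66059003 to 66074587 on the plus strand. Lsm4 (ENSMUSG00000031848) lies on chromosome 8 from 70673248 to 70678752 on the plus strand. Snrnp70 (ENSMUSG00000063511) lies on chromosome 7 from 45376453 to 45395742 on the minus strand. These genes belong to the U2, LSm and U1 classes. Snrnp40 (ENSMUSG00000074088) lies on chromosome 4 from 130360132 to 130390026 on the plus strand. Bud31 (ENSMUSG00000038722) lies on chromosome 5 from 145140362 to 145148078 on the plus strand. Sfpq (ENSMUSG00000028820) lies on chromosome 4 from 127021324 to 127037013 on the plus strand.

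**Figure D3:**
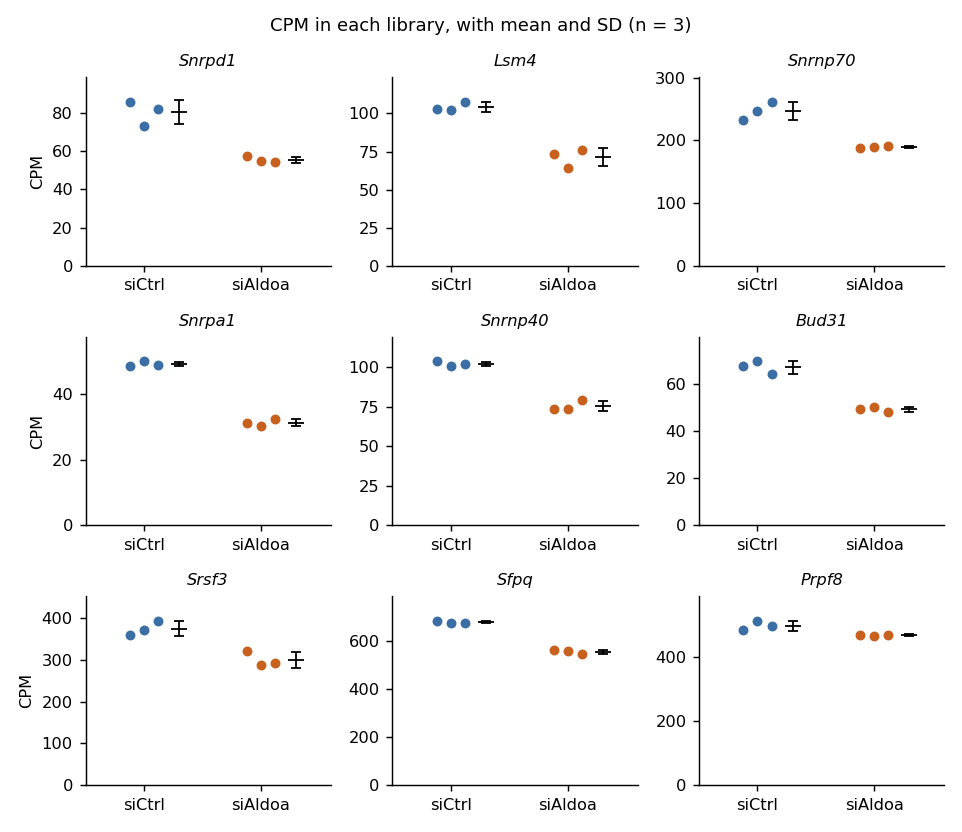
CPM of 9 members in each library (points), with mean and SD (n = 3) beside them, on axes that start at 0. Snrpa1 lies at 31.3, 30.2 and 32.5 CPM in siAldoa, under all its controls, while Prpf8 differs by a small margin.

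Levels between genes were compared per length, as CPM per kb of the median coding transcript in siCtrl. Lsm4 was at 164 ± 4.75 and Snrpb at 153 ± 2.35 CPM per kb (SD, n = 3), against 21.2 ± 1.83 for Snrpf. Among SR proteins Srsf1 was highest at 229 ± 1.92 CPM per kb, and Prpf31 was the lowest member at 6.26 ± 0.682. These levels depend on the annotated transcripts, since the transcripts used by these cells were not measured.

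Shorter members tended to have lower log2 fold changes. With the length of all merged exons, Spearman's rho between length and log2 fold change was 0.41 across the 53 members and 0.16 across 9009 protein-coding genes at or above the lowest member in mean CPM. With the median coding transcript, a measure chosen after the first result had been seen, it was 0.51 and 0.20. Genes are not independent replicates and share the 6 libraries, so no p-value is given. By merged exons, members under 2000, from 2000 to under 4000 and of 4000 bases or more had medians of -0.29, -0.16 and -0.10, against -0.08, -0.03 and 0.03 in all such genes. By coding transcript, members under 1000, from 1000 to under 2500 and of 2500 bases or more had medians of -0.29, -0.25 and -0.08, against -0.07, -0.04 and 0.04. By merged exons 5 of 10, 9 of 19 and 10 of 24 members were called lower from short to long, beside 21.6%, 18.3% and 14.2% of all such genes. By coding transcript 6 of 14, 12 of 19 and 6 of 20 were called lower, beside 19.8%, 19.7% and 13.5%, so here the share was highest in the middle range. The part of length in the results was not tested.

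**Figure D4:**
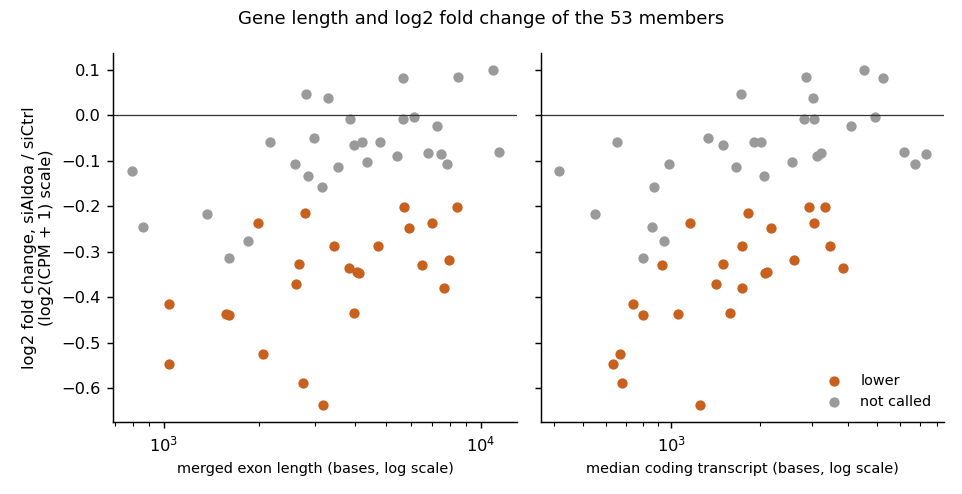
Log2 fold change (y axis, log2(CPM + 1) scale) of the 53 members against the merged exon length (left) and the median coding transcript length (right), both in bases on a log scale. Points are genes, coloured by call, and Spearman's rho is 0.41 on the left and 0.51 on the right.

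Other splicing genes were taken from lists by role. Of 127 listed genes 123 were in the table, and 38 (30.9%) were lower and 6 (4.88%) higher, with a median log2 fold change of -0.10. Beside these, 10.0% of all genes were lower and 10.4% higher. Of the 10353 genes with a mean CPM at or above that of the lowest member, 16.2% were lower and 15.7% higher. Other LSm genes (16.7% lower) and other tri-snRNP and B complex genes (17.6%) were close to the share of 16.2%. Other Prp19-related and catalytic genes (4.55%) were under it. The lists were not tested against these shares. The heterogeneous nuclear ribonucleoproteins (hnRNPs), which package nascent RNA, had 20 of 26 genes lower and 1 higher. Hnrnpd was the lowest, at 320.4 CPM in siCtrl and 244 CPM in siAldoa on average (-0.39, adjusted p = 9.1e-07), and Pcbp2 was the higher one (0.30, adjusted p = 0.00093). Of the snRNP assembly genes 3 of 14 were lower, from Gemin6 of the SMN complex (-0.50, adjusted p = 0.0023) to Strap (-0.15, adjusted p = 0.0072). Among other LSm genes 1 of 6 was lower, Lsm1 of the cytoplasmic ring (-0.41, adjusted p = 0.0021). Of other U1 and U2 genes 3 of 15 were lower, with Phf5a of SF3b the lowest (-0.32, adjusted p = 0.00019). Other tri-snRNP and B complex genes had 3 of 17 lower and 2 higher, from the cyclophilin Ppih (-0.51, adjusted p = 0.0012) to the kinase Prpf4b (0.23, adjusted p = 0.0054). Other Prp19-related and catalytic genes had 1 of 22 lower, Ppil1 (-0.48, adjusted p = 0.00057), and 1 higher, the helicase Dhx16 (0.29, adjusted p = 0.011). In the minor spliceosome 2 of 7 were lower, Snrnp48 (-0.32, adjusted p = 0.0053) and Zrsr2 (-0.20, adjusted p = 0.030). Other SR proteins, their kinases and their importer had 5 of 13 lower, with Tra2b the lowest (-0.45, adjusted p = 5.4e-07), and 1 higher, the kinase Clk1 (0.30, adjusted p = 0.00083). Of the other DBHS and FET genes 0 of 3 were lower and 1 was higher, Taf15 (0.20, adjusted p = 0.0019).

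**Figure D5:**
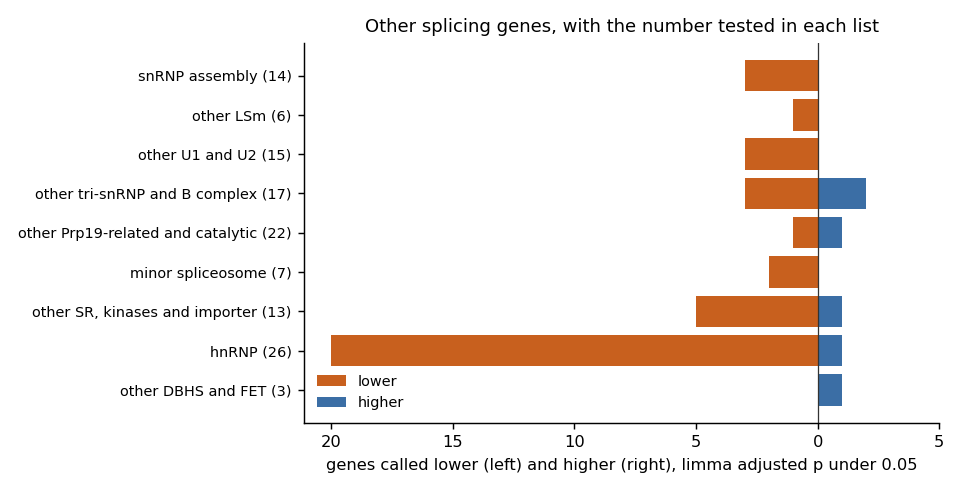
Number of other splicing genes called lower (bars to the left) and higher (bars to the right) in each list, with the number of genes tested in parentheses. The hnRNPs have 20 of 26 lower and 1 higher, while other Prp19-related and catalytic genes have 1 of 22 lower and 1 higher. Over all genes 10.0% were lower and 10.4% higher.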

How the data were processed

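Poly(A) RNA of 6 libraries was sequenced, aligned to mm10 with Bowtie2 (version 2.2.7), subsampled to equal read numbers and counted per gene by the authors. The authors deposited CPM of an effective library size for 18001 genes, and a comparison table of fold changes, mean CPM and p-values that was not used here. The annotation, strand setting and treatment of multi-mapping reads are not given in the sources used here. Dividing CPM by the value of 1 read gave whole reads, to within 0.01 read, for 100% of values. Reads carry no molecular identifiers, so depth covers counting error only.

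Members and lists were chosen with earlier results of these data known. The comparison used limma 3.58.1 in R 4.3.3, fitted with a trend of variance on mean to log2(CPM + 1), and p-values were adjusted by Benjamini-Hochberg over all genes. edgeR (version 4.0.16) on recovered reads called 1866 genes lower and 1920 higher, and DESeq2 (version 1.42.0) was a further alternative. Values in every library are given for the 3 called members of each class with the largest change, for the highest and lowest member of each class, and for Bud31, Sfpq and Ewsr1. Snrpf and Prpf8 were added after their values were seen. In the other lists the lowest and highest called gene are named, except 1 that is not reported here. Positions and lengths come from GENCODE vM21 (GRCm38), and near-identical stretches of at least 200 bases at 90% identity were searched with blastn (version 2.17.0). The tests were tried on simulated data. Alternatives covered the pseudocount, a filter on low values, scalings, the trend, the test, the replicate number as a block and libraries left out. Averaging replicates 1 and 2, adding near-identical predicted genes and the length of the median coding transcript were chosen after seeing the data. The replicates are described as biological by the study, and p-values measure the spread between these samples. Between replicates 1 and 2 that spread was little above counting error, with chi-square per degree of freedom of 1.12 and 1.11, where 1 is counting error alone.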

Additional observations from a re-analysis of the deposited data

How the results depend on the processing

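Changing the pseudocount, the filter on low values, the TMM or DESeq2 scaling and edgeR's test left 24 members lower. Over all genes tested, 1740 (pseudocount) to 1948 (filter) were lower in these settings. Quantile normalization gave 24 members lower and 2 higher (Sf3b3 and Srsf11), beside 1683 and 1751 of all genes, and a member median of -0.169. Without the mean-variance trend 616 genes were lower and 824 higher, with 8 members lower: 1 in each class except the SR proteins, with 0. DESeq2 called 1117 genes lower and 1066 higher, with 1 U1, 3 U2 and 0 U11/U12 members lower. With replicates 1 and 2 averaged, 22 members and 1510 of all genes were lower, with 1 tri-snRNP and 0 U11/U12 members. With near-identical predicted genes added 27 members were lower, 5 of them LSm and 6 U2, beside 1804 of all genes.

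Leaving out libraries gave 520 to 1371 genes lower, 494 to 1464 higher, 10 to 21 members lower, 0 to 1 higher and a member median of -0.217 to -0.169. Per class the lower counts were 1 to 5 (Sm), 1 to 4 (LSm), 1 to 2 (U1), 1 to 4 (U2), 1 to 2 (tri-snRNP), 0 to 0 (U11/U12) and 1 to 3 (SR). The Prp19-related median ranged from -0.0588 (without replicate 3) to 0.0374. These fits hold fewer libraries. For the other settings the cause was not tested. Bud31, Lsm4, Sfpq, Snrnp40, Snrnp70 and Snrpa1 were lower in all 20 alternatives.

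The replicate numbers were not treated as pairing the samples, although the methods tie number 1 to another spike-in step, and the pairing cannot be settled from these data. Correlations of same-numbered libraries' deviations over 8271 genes were 0.04, 0.04 and 0.207 for replicates 1, 2 and 3, the last the highest of all pairs, and siCtrl replicate 2 correlated best with siAldoa replicate 1 (0.125). With the replicate block 23 members, 1559 of all genes and 0 U11/U12 members were lower, and Snrnp25 was the call lost (adjusted p = 0.070). At this depth, changes of members with few reads are the least precise. The largest standard errors were those of Lsm5 (0.192), Lsm3 (0.150), Snrnp25 (0.145), Snrnp27 (0.143) and Snrpf (0.138), of which Lsm3 and Snrnp25 were called lower.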
